A study of Mus musculus with 6 samples.

Results

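Ribosome biogenesis genes were taken as the rows of the deposited gene table that carry the KEGG pathway Ribosome biogenesis in eukaryotes, with symbols starting with Eif left out, which removed 1 gene. This gave 76 of the 22322 genes in the table, and 71 of them had enough counts to be tested. The RNA came from double-positive (DP) thymocytes, the stage of T cell development in the thymus that carries both CD4 and CD8, sorted by flow cytometry from untreated mice of 4 to 7 weeks of age and mixed sexes on a C57BL/6 background. The 3 control libraries came from Paxbp1 fl/fl littermates, and the other 3 libraries from Paxbp1 cKO mice (Paxbp1 fl/fl Lckcre), so that all 6 share the floxed Paxbp1 allele. In the cKO mice the Lck promoter drives Cre in the T cell lineage from an early thymocyte stage on. The controls are labelled without Cre, so an effect of Cre itself cannot be told apart from the loss of Paxbp1. The sources used here do not give the number of mice behind a library, and p-values therefore measure only the spread between these libraries.

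Ribosomes are built in the nucleolus, where RNA polymerase I transcribes a long precursor of the ribosomal RNAs (rRNA). Small nucleolar ribonucleoproteins (snoRNPs) modify this precursor, the small subunit processome folds and cuts it, and GTPases and AAA ATPases remodel the large subunit before both subunits leave for the cytoplasm. Thymocytes that divide after pre-TCR signaling make many new ribosomes, whereas most DP cells are small and at rest.

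The targeted gene was looked at first. Paxbp1 stood at 40.2, 16.4 and 15.5 CPM (counts scaled to the library total, adjusted by TMM) in the control libraries and at 38.9, 47.1 and 49.6 CPM in the libraries labelled cKO. Its log2 fold change was 0.92 (SE 0.33, adjusted p = 0.0977, edgeR's quasi-likelihood test), and the groups overlapped, since control 1 lay within the range of the libraries labelled cKO. DESeq2 (adjusted p = 0.0226) and limma-voom (0.0390) called it higher, as did edgeR without control 1 (0.00170). A count over the whole gene does not measure the floxed exon 8 alone, and the direction was opposite to the label, so the second group is called the libraries labelled cKO throughout. Libraries held between 18963775 and 26252248 counts, and the first principal component (38.9% of the variance) separated the groups by label.

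All 12 DP markers were detected in both groups, with Cd4, Cd8a and Rag1 among them, but their summed level was 11400 to 13430 CPM in control libraries and 8498 to 10060 CPM in libraries labelled cKO. Of the 12, 4 were called lower (Rag1, Cd3e, Cd8b1 and Cd3g, beside 5.89% of all tested genes) and 0 higher. None had a fold change above 0 (0 of 12, beside 49.8% of all tested genes), and their median log2 fold change was -0.39. All libraries labelled cKO lay below all controls for 6 of the 12 (50%, beside 17.3%). Markers of other cell types also differed between the groups. The 20 macrophage markers summed to 20.5 to 38.7 CPM in the controls and 70.0 to 98.1 CPM in the libraries labelled cKO. Of these markers, 14 were tested and 7 called higher, 6 of 20 were at 0 in the controls (Adgre1, Cd5l, Timd4 and Fcgr1 among them), and 2 of 20 were at 0 in the libraries labelled cKO. Markers of double-negative (DN) and immature single-positive (ISP) thymocytes summed to 42.8 to 56.7 CPM against 82.8 to 125 CPM, with 3 of 7 tested called higher. Most of this rise was Hes1 (mean 7.83 against 54.1 CPM), with Il2ra and Dtx1 the others called, while the other 4 tested had fold changes below 0 and the list's median log2 fold change was -0.01. The 12 cycling cell markers summed to 4140 to 6479 CPM against 6886 to 8923 CPM, with 5 called higher. These were Mcm2, Mcm4, Mcm5, Mcm6 and Pcna, all genes of DNA replication. Tyms, Mki67, Ccnb1, Cdk1, Top2a and Ccna2 overlapped between the groups. Of the 12, 10 had a fold change above 0, and Top2a (log2 fold change -0.16) and Ccna2 (-0.05) did not. Dendritic cell markers summed to 33.7 to 45.1 CPM in the controls and 54.7 to 71.4 CPM in the libraries labelled cKO. Most of this sum was Bst2 (29.3 to 40.5 CPM against 47.8 to 61.5 CPM). It was the only 1 of 4 tested that was called, though all 4 had fold changes above 0. No other marker of that list exceeded 3.645 CPM in any library. B cell markers summed to 947 to 1298 CPM and 872 to 910 CPM. The B cell sum was almost wholly Ighm (903 to 1253 CPM against 840 to 879 CPM). Of the 3 B cell markers tested, 1 was called lower, Cd79b, and 1 had a fold change above 0, Blk. Cd79b stood at 43.6, 45.0 and 40.2 CPM in the controls and at 23.3, 28.2 and 27.7 CPM in the libraries labelled cKO (log2 fold change -0.70, adjusted p = 0.0194, edgeR's quasi-likelihood test). Blk, Cd22, Cd79a and Ms4a1 had higher means in the libraries labelled cKO, none above 2.03 CPM. The sums of erythroid markers (46.4 to 153 CPM and 9.40 to 55.7 CPM, 0 of 6 tested called), of mature SP T cell markers (479 to 619 CPM and 475 to 1016 CPM) and of thymic epithelial markers (35.7 to 40.6 CPM and 33.9 to 38.4 CPM) overlapped between the groups. The part of these cells in the results below was not tested.

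Ribosome biogenesis genes were mostly higher in the libraries labelled cKO. Of the 71 tested members, 12 were called higher (adjusted p below 0.05 over all 11488 tested genes, edgeR's quasi-likelihood test), which is 16.9%, beside 4.47% of all tested genes. These were Gnl3, Wdr75, Dkc1, Wdr43, Nop58, Riok2, Xpo1, Utp4, Utp15, Nat10, Utp18 and Gar1. No member was called lower (0 of 71), beside 5.89% of all tested genes, while at an unadjusted p below 0.05 3 members were lower (beside 14.6% of all tested genes) and 26 higher (beside 13.3%). DESeq2 called 16 members higher (beside 8.3% of all tested genes) and 2 lower, Bms1 and Rpp25l (beside 8.59%). The fold change was above 0 for 58 of 71 members (81.7%, beside 49.8% of all tested genes). Their median log2 fold change was 0.26, with a middle range of 0.06 to 0.42 and extremes of -0.73 and 1.46, and the median of all tested genes was 0.00 (-0.0017). Only Gnl3 and Riok2 also exceeded an absolute log2 fold change of 1, which 2.76% of all tested genes did together with the adjusted p.

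**Figure D1:**
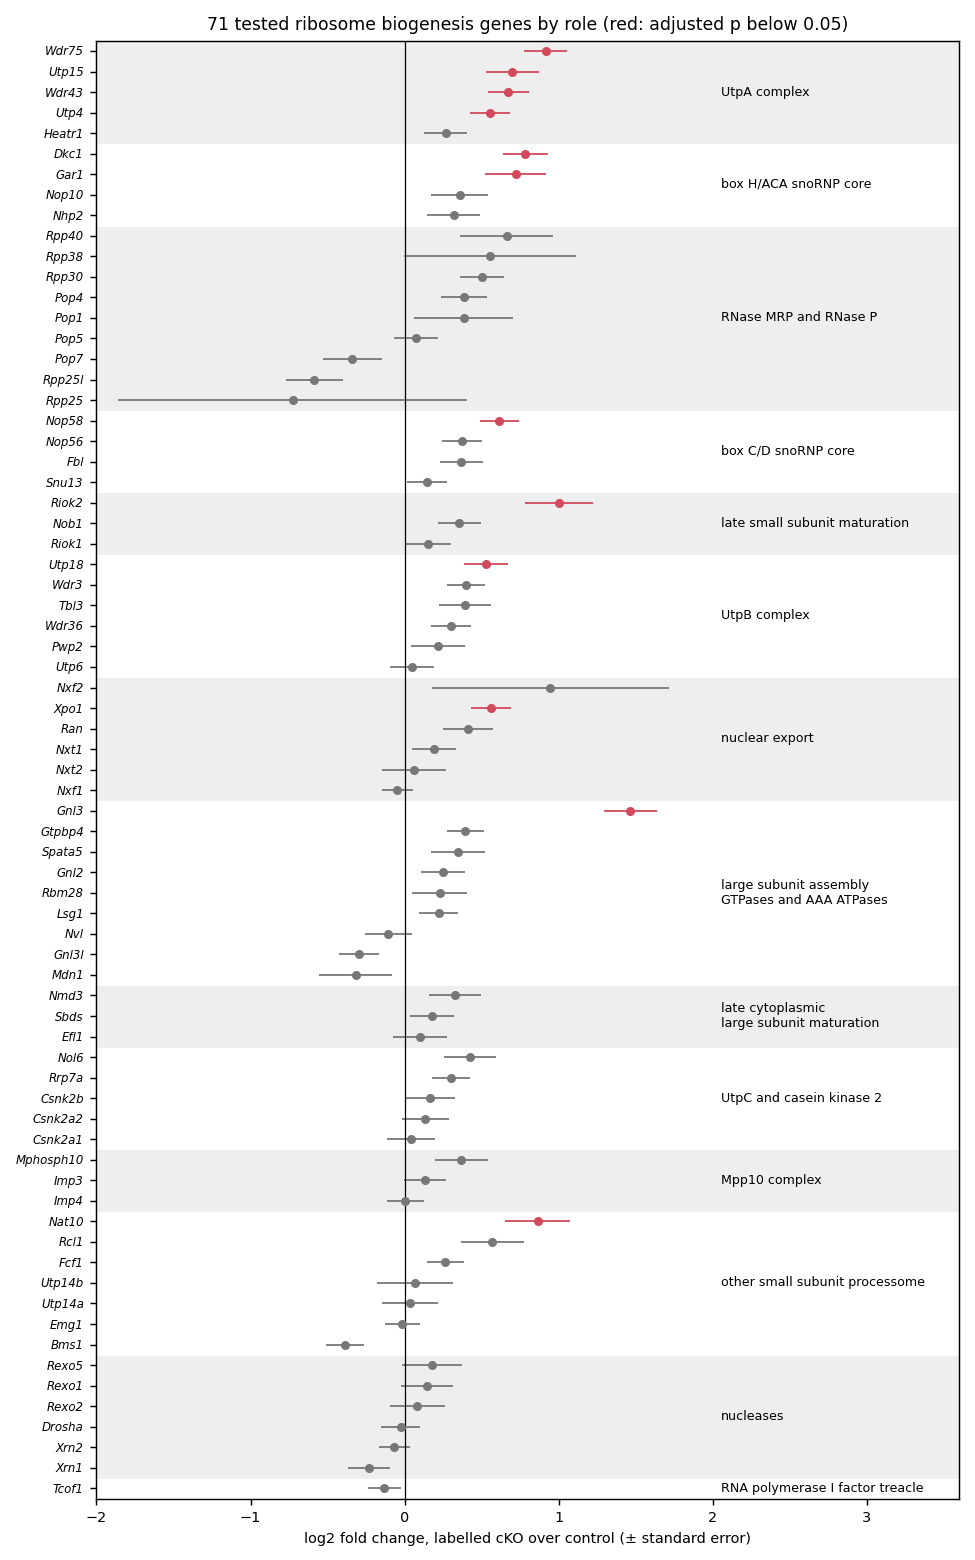
Log2 fold change, libraries labelled cKO over control, with its standard error, for each of the 71 tested members, grouped by role (red, adjusted p below 0.05). Points lie to the right of 0 for 58 of the 71 members, and the 12 red points lie between 0.53 and 1.46.

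Seen library by library, the shift was of a similar size in each library labelled cKO. The members took up 0.660%, 0.616% and 0.673% of all counts in control 1, 2 and 3, and 0.778%, 0.775% and 0.786% in the libraries labelled cKO. The groups did not overlap in this share. Relative to each gene's mean over the 6 libraries, the median member stood at -0.08, -0.15 and -0.09 on a log2 scale in the controls and at 0.10, 0.13 and 0.15 in the libraries labelled cKO, while the median of all tested genes lay between 0.00 and 0.02 in every library. All 3 libraries labelled cKO were above all 3 controls for 30 of the 71 members (42.25%, beside 15.7% of all tested genes) and below them for 4 (Bms1, Rpp25l, Gnl3l and Tcof1, 5.63%, beside 17.3%), and the other 37 members overlapped. Among the controls, control 2 was the lowest library for 30 members and control 1 for 24. The number of calls depended on single libraries, for the members as for all genes. It was 2 members without cKO 3 (beside 0.359% of all tested genes), 3 without control 2 (1.5%), 6 without cKO 1 (1.53%), 6 without control 3 (2.42%), 7 without cKO 2 (2.81%) and 17 without control 1 (8.42%). In bulk RNA, a larger share of cells of a type and more RNA per cell cannot be told apart.

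**Figure D2:**
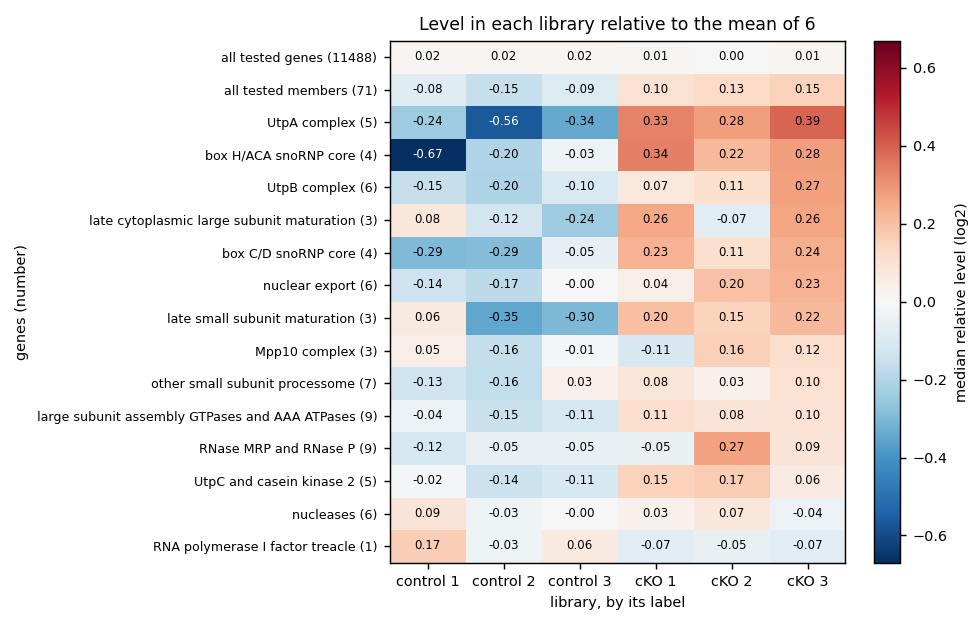
Median log2 level of each role in each library, relative to the gene's mean over the 6 libraries (number of genes in brackets, blue below and red above the mean). The row of all tested members runs from -0.15 to -0.08 in the controls and from 0.10 to 0.15 in the libraries labelled cKO, and the UtpA and box H/ACA rows hold the lowest control values (-0.56 in control 2 and -0.67 in control 1).

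The UtpA complex, also called the t-UTP complex, binds the start of the rRNA precursor while it is still being transcribed, and its loss is known to lower transcription by RNA polymerase I. All 5 of its genes in the KEGG pathway were higher in every library labelled cKO than in any control (beside 15.7% of all tested genes). Of the 5, 4 were called higher (beside 4.47%). Wdr75 stood at 33.8, 28.0 and 30.9 CPM in the controls and at 59.9, 56.2 and 58.8 CPM in the libraries labelled cKO, a log2 fold change of 0.92 (SE 0.14, adjusted p = 0.00653). Wdr43 went from 198, 145 and 169 CPM to 271, 261 and 286 CPM (log2 fold change 0.67, SE 0.13, adjusted p = 0.0132). The libraries labelled cKO were closely spaced for both genes. Utp15 stood at 99.9, 60.4 and 74.7 CPM against 123, 129 and 129 CPM (log2 fold change 0.70, SE 0.17, adjusted p = 0.0307), with the wider spread among the controls. Utp4, also known as cirhin, stood at 57.6, 54.9 and 56.0 CPM against 86.6, 72.0 and 89.0 CPM (log2 fold change 0.56, SE 0.13, adjusted p = 0.0268). Heatr1, the largest protein of the complex, was not called, at 39.8, 44.5 and 49.8 CPM against 54.4, 54.6 and 52.4 CPM (log2 fold change 0.27, SE 0.14, adjusted p = 0.245). Wdr75 was called whichever library was left out. Wdr43 lost its call without cKO 3 (adjusted p = 0.0779) and control 2 (0.0559), Utp4 without cKO 1, cKO 3, control 2 and control 3 (0.0740 to 0.131), and Utp15 without any library but control 1 (0.0788 to 0.122).

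**Figure D3:**
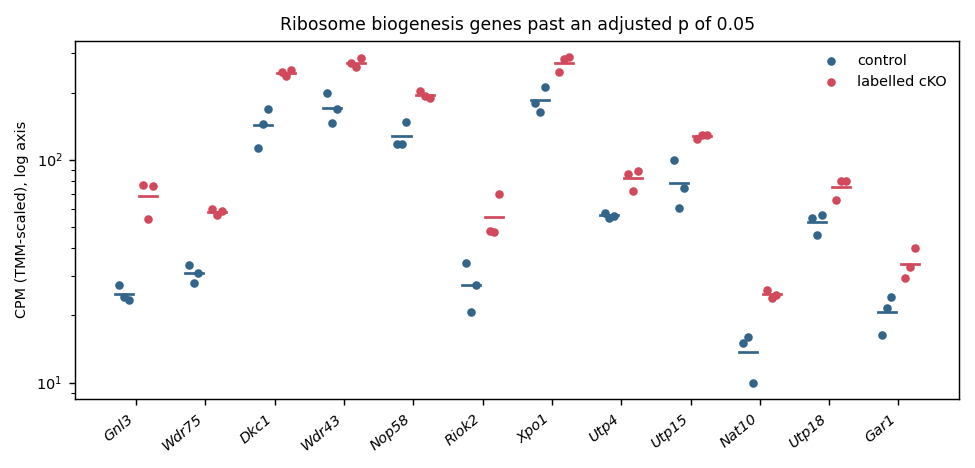
CPM (log axis) of the 12 members called higher, in each control library (blue) and each library labelled cKO (red), with the group mean as a line. The points of the groups do not overlap for any of the 12 genes, and the gap is largest for Gnl3, at 23.4 to 27.5 CPM against 54.1 to 76.6 CPM.

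The UtpB complex joins UtpA on the growing precursor and holds the U3 snoRNP in place. All 6 of its members had a fold change above 0 (beside 49.8% of all tested genes), and 1 was called higher (16.7%, beside 4.47%). Utp18 stood at 54.5, 46.1 and 56.6 CPM in the controls and at 65.6, 80.5 and 80.1 CPM in the libraries labelled cKO (log2 fold change 0.53, SE 0.14, adjusted p = 0.0449). This call was lost without any library but control 1 (adjusted p = 0.0642 to 0.171). Wdr3 stood at 69.9, 68.6 and 76.0 CPM against 86.1, 99.5 and 97.0 CPM and was not called (log2 fold change 0.40, SE 0.12, adjusted p = 0.0632), although its groups did not overlap. DESeq2 did call it (adjusted p = 0.0256), as did the filter at a mean of 5 CPM (0.0446). Of its exonic bases, 15.7% are shared with Spag17 on the opposite strand, and the sources used here do not say whether counting used strand. The other 4 members ranged from 0.05 (Utp6) to 0.39 (Tbl3, which shares 37.3% of its exonic bases with Noxo1 on the opposite strand) on the log2 scale.

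Of the remaining 7 processome factors, 5 had a fold change above 0 (71.4%, beside 49.8% of all tested genes). Nat10, the acetyltransferase that modifies cytidines of the small subunit rRNA, was the only one called (14.3%, beside 4.47%). It stood at 15.1, 16.04 and 9.98 CPM in the controls and at 25.97, 24.1 and 24.6 CPM in the libraries labelled cKO (log2 fold change 0.86, SE 0.21, adjusted p = 0.0318). The call was lost without any library but control 1 (adjusted p = 0.0553 to 0.114). Bms1, a GTPase of the processome, had the opposite sign, at 92.3, 88.5 and 81.7 CPM against 72.7, 64.6 and 63.4 CPM. All of its controls lay above all of the libraries labelled cKO, but its adjusted p was 0.0719 (log2 fold change -0.39, SE 0.12). DESeq2 called Bms1 lower (adjusted p = 0.0486). Rcl1, the partner that Bms1 brings to the processome, had the opposite sign to Bms1 (log2 fold change 0.57, SE 0.21, adjusted p = 0.103), at 17.1, 22.3 and 22.8 CPM against 35.3, 23.3 and 33.7 CPM. The difference between the 2 genes was not tested.

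Emg1, a methyltransferase of the small subunit rRNA, was nearly level, at 220 to 261 CPM in the controls and 225 to 249.2 CPM in the libraries labelled cKO, and the sign of its log2 fold change (-0.01, SE 0.11) turned with the scaling. Utp14a (0.04, SE 0.18) and Utp14b (0.07, SE 0.25), paralogs that activate a helicase of the processome, had small log2 fold changes as well, with adjusted p of 0.925 and 0.894. The 2 are near copies of each other, so that reads could be split between them. Utp14b stood at 147, 63.6 and 115 CPM in the controls and at 98.2, 127 and 116 CPM in the libraries labelled cKO, and 3.18% of its exonic bases are shared with Acsl3 on the same strand. The 3 members of the Mpp10 complex had log2 fold changes of 0.00 to 0.37, and the 5 genes of UtpC and casein kinase 2 had 0.04 to 0.42, with 0 of these 8 called (2 at an unadjusted p below 0.05, Nol6 and Rrp7a, and 0 by DESeq2). Without control 1, Mphosph10 and Nol6 were called higher.

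SnoRNPs guide the chemical modification of rRNA. Those of the box C/D class methylate riboses through fibrillarin, and those of the box H/ACA class turn uridine into pseudouridine through dyskerin. All 8 core proteins had a fold change above 0 (beside 49.8% of all tested genes), and 3 were called higher (beside 4.47%). Dkc1, which encodes dyskerin, stood at 113, 145 and 169 CPM in the controls and at 246, 238 and 251 CPM in the libraries labelled cKO (log2 fold change 0.78, SE 0.15, adjusted p = 0.0113). Gar1, which helps dyskerin to release its product, stood at 16.3, 21.6 and 24.2 CPM against 29.3, 33.0 and 40.2 CPM (log2 fold change 0.72, SE 0.20, adjusted p = 0.0460). Control 1 was the lowest library for all 4 box H/ACA genes. Nop10 stood at 48.9 CPM in control 1, against 79.4 and 80.9 CPM in the other two controls and 84.5 to 98.5 CPM in the libraries labelled cKO (log2 fold change 0.36, SE 0.19, adjusted p = 0.248). Nhp2 stood at 44.0, 56.7 and 67.1 CPM against 78.2, 63.5 and 67.5 CPM, with overlap (log2 fold change 0.32, SE 0.17, adjusted p = 0.257). Dkc1 lost its call without cKO 3 (adjusted p = 0.0680), and Gar1 lost its call whichever library was left out (0.0567 to 0.189).

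Among the box C/D proteins, Nop58 was called and its paralog Nop56 was not. Nop58 stood at 117, 118 and 148 CPM in the controls and at 203, 194 and 190 CPM in the libraries labelled cKO (log2 fold change 0.62, SE 0.12, adjusted p = 0.0154), and lost its call without cKO 1, cKO 3 or control 2 (adjusted p = 0.0655 to 0.0717). Nop56 stood at 305, 228 and 255 CPM against 359, 315 and 345 CPM (log2 fold change 0.37, SE 0.13, adjusted p = 0.0921). The groups did not overlap for either gene, and Nop56 was called by DESeq2 (adjusted p = 0.0406) and without control 1 (0.0119). Fbl, which encodes fibrillarin, stood at 52.9, 58.4 and 66.4 CPM against 70.3, 73.7 and 85.2 CPM (log2 fold change 0.37, SE 0.14, adjusted p = 0.120). Snu13, the protein that binds the snoRNA first and is shared with the spliceosome, overlapped between the groups, at 376 to 497 CPM against 441 to 510 CPM (log2 fold change 0.15, SE 0.13, adjusted p = 0.503).

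**Figure D4:**
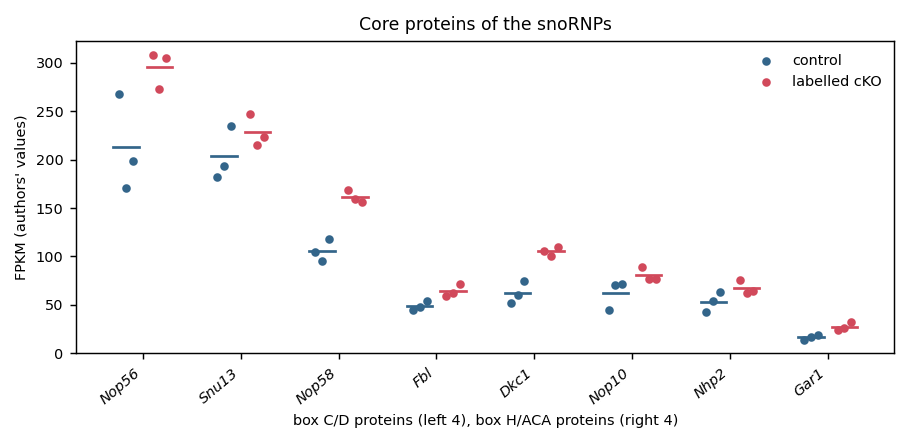
Authors' FPKM, which scales counts to gene length and library size, of the 8 snoRNP core proteins in each control library (blue) and each library labelled cKO (red), with the group mean as a line. Nop58 goes from a mean of 106 to 162 FPKM and Dkc1 from 62.0 to 105 FPKM with no overlap, while the Snu13 points overlap.

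Several of these genes carry snoRNA genes in their introns, so that the host transcript and the guide RNA come from 1 precursor. In GENCODE release M21 on GRCm38, 16 snoRNA genes lie inside 5 members, with 3 in Gnl3, 4 in Nop58, 3 in Wdr43, 1 in Dkc1 and 5 in Nop56. Of these, 15 overlap no exon of a protein-coding transcript of the host. The snoRNAs themselves were not analysed here, so the values of the hosts say nothing of their level. Of the 5 hosts, 4 were called higher, and Nop56 was not. Across all tested protein-coding genes with a snoRNA gene inside, 30 of 216 (13.9%) were called higher and 3 lower, with a median log2 fold change of 0.20. The 211 hosts outside the pathway had 26 called higher (12.3%), beside 4.47% of all tested genes. The sequences below show the guides that 4 of the hosts carry, with the letters of box C (ATGATGA or GTGATGA) and box D (CTGA), the elements that the box C/D proteins bind, in capitals. They were taken from the transcript sequences of GENCODE release M21, and the positions given are those annotated on GRCm38. Snord69 lies in Gnl3 (chr14:31014287-31014366, minus strand), Snord11 in Nop58 (chr1:59704790-59704873, plus strand), Snord92 in Wdr43 (chr17:71631281-71631365, plus strand) and Snord110 in Nop56 (chr2:130275506-130275573, plus strand).
Snord69: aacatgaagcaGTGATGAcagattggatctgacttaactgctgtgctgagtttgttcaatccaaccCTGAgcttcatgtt
Snord11: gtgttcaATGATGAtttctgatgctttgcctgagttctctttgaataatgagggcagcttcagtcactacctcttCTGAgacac
Snord92: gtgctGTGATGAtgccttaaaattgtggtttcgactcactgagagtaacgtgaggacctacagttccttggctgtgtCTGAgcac
Snord110: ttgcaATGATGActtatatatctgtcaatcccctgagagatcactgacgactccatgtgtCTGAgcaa

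Gnl3, which encodes the nucleolar GTPase nucleostemin, had the largest fold change of the members. It stood at 27.5, 24.2 and 23.4 CPM in the controls and at 76.6, 54.1 and 76.3 CPM in the libraries labelled cKO, which is 2.76-fold higher (log2 fold change 1.46, SE 0.17, adjusted p = 0.00349). It was called whichever library was left out. Only 15 of its exonic bases (0.246%) are shared with Pbrm1 on the opposite strand, which itself had a log2 fold change of -0.49. The paralog Gnl3l had the opposite sign, at 81.2, 92.5 and 93.5 CPM against 64.1, 75.3 and 78.0 CPM (log2 fold change -0.30, SE 0.13, adjusted p = 0.170). All libraries labelled cKO lay below all controls for Gnl3l, the reverse of Gnl3. Gtpbp4, a GTPase of the early large subunit, stood at 75.01, 77.3 and 72.9 CPM against 109, 91.0 and 95.7 CPM and was not called (log2 fold change 0.39, SE 0.12, adjusted p = 0.0647), while DESeq2 (0.0273) and the filter at a mean of 5 CPM (0.0472) called it. The other 6 genes of this group ranged from -0.32 (Mdn1, the AAA ATPase that strips factors from the precursor) to 0.35 (Spata5) on the log2 scale.

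The last steps take place in the cytoplasm. Riok2, a kinase that works on the precursor of the small subunit, stood at 34.4, 20.7 and 27.4 CPM in the controls and at 48.0, 47.1 and 70.2 CPM in the libraries labelled cKO, 2.0-fold higher (log2 fold change 1.0, SE 0.22, adjusted p = 0.0212). It lost its call without cKO 3 (adjusted p = 0.110), control 2 (0.0749) or control 3 (0.0567). Its relative Riok1 overlapped between the groups, at 55.2 to 78.3 CPM against 69.3 to 75.6 CPM (log2 fold change 0.15, SE 0.15, adjusted p = 0.554). Nob1, the nuclease that makes the final cut of the small subunit rRNA, stood at 78.9, 59.3 and 63.1 CPM against 87.0, 82.6 and 87.8 CPM (log2 fold change 0.36, SE 0.14, adjusted p = 0.127). Without control 1 its adjusted p was 0.0188. On the large subunit, Nmd3, the adaptor for its nuclear export, stood at 185, 120 and 135 CPM against 197, 155 and 201 CPM (log2 fold change 0.33, SE 0.17, adjusted p = 0.248, and 0.0256 without control 1). Sbds and Efl1, which together free the large subunit for translation, had log2 fold changes of 0.18 (SE 0.14, adjusted p = 0.457) and 0.10 (SE 0.18, adjusted p = 0.762), and both overlapped between the groups.

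Export factors serve many cargoes besides ribosomal subunits. Xpo1, the exportin that carries both subunits through the nuclear pore, stood at 179, 164 and 211 CPM in the controls and at 246, 283 and 289 CPM in the libraries labelled cKO (log2 fold change 0.56, SE 0.13, adjusted p = 0.0244). It lost its call without cKO 2 (adjusted p = 0.0759), cKO 3 (0.121) or control 2 (0.105). Ran, the GTPase that powers this transport, stood at 467, 670 and 759 CPM against 799, 849 and 870 CPM, with control 1 far below the other libraries (log2 fold change 0.41, SE 0.16, adjusted p = 0.131). Nxf1, the main export receptor for mRNA, overlapped between the groups, at 466 to 525 CPM against 474 to 481 CPM (log2 fold change -0.05, SE 0.10, adjusted p = 0.806). Of the other 5 export genes, Nxf3 and Nxf7 were at 0 in all libraries, and Nxt1, Nxt2 and the scarcely detected Nxf2 were not called.

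RNase MRP and RNase P share most of their protein subunits, and 0 of the 9 tested were called in either direction (2 higher and 1 lower at an unadjusted p below 0.05). Rpp30 stood at 44.8, 48.7 and 52.1 CPM in the controls and at 60.6, 66.2 and 79.4 CPM in the libraries labelled cKO (log2 fold change 0.50, SE 0.15, adjusted p = 0.0537). Rpp25l had the opposite sign, at 37.6, 29.1 and 33.4 CPM against 26.1, 21.9 and 18.7 CPM (log2 fold change -0.59, SE 0.18, adjusted p = 0.0668). The groups did not overlap for either subunit, and DESeq2 called both, Rpp30 higher (adjusted p = 0.0163) and Rpp25l lower (0.0385). With edgeR, Rpp30 was also called with the filter at a mean of 5 CPM (0.0389) and with total counts (0.0450), and Pop4 was called higher without control 1. The other 7 ranged from -0.73 for Rpp25, at no more than 1.17 CPM in any library, to 0.66 for Rpp40, at 3.599 to 4.12 CPM against 5.86 to 6.56 CPM. The 6 nucleases of the pathway, among them Xrn2 and Drosha, lay between -0.23 and 0.18 on the log2 scale, all with overlapping groups. Tcof1, which encodes treacle, a nucleolar factor for rRNA transcription, stood at 285, 247 and 264 CPM against 241, 245 and 241 CPM (log2 fold change -0.13, SE 0.11, adjusted p = 0.457). The lowest control lay just above the highest library labelled cKO.

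On the authors' FPKM, which allow levels to be compared between genes, the tested members spanned 0.332 (Nxf2) to 309 (Ran) as means over the 6 libraries, with a median of 25.7 FPKM. Ran was followed by Nop56 (254 FPKM), Emg1 (235), Snu13 (216) and Nxf1 (200.3). In the controls alone Emg1 (233 FPKM) stood above Nop56 (213). Of these most abundant 5, none was called (0 of 5, with 2 at an unadjusted p below 0.05, Ran and Nop56, and Nop56 called by DESeq2 and without control 1). The ranges of Nop56 (171 to 268 FPKM), Emg1 (215 to 250 FPKM) and Snu13 (183 to 235 FPKM) overlapped among the controls, so that their order was not resolved there. In the libraries labelled cKO, Nop56 (273 to 308 FPKM) lay wholly above Emg1 (222 to 244 FPKM) and Snu13 (215 to 247 FPKM), and the latter pair overlapped. Level and fold change showed little relation, with Spearman's rho of -0.02 over the 71 tested members, given as a description since all share the same 6 libraries. Of the 12 called members, 6 were among the 36 more abundant and 6 among the 35 less abundant. The 5 untested members were Nxf3, Nxf7 and 1700009N14Rik, at 0 in all libraries, and Fbll1 and Rasl2-9, relatives of Fbl and Ran, with no more than 0.231 CPM in any library.

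Genes of ribosome assembly that KEGG does not list in this pathway were taken from a list of 92 genes, the MYC family among them, of which 91 were tested. Of these, 19 were called higher (20.9%, beside 4.47% of all tested genes) and 2 lower (beside 5.89%). A fold change above 0 was seen for 68 (74.7%, beside 49.8%), and the median log2 fold change was 0.17. The count of 19 was 0 without cKO 3, 5 without cKO 1, 5 without control 2, 8 without control 3, 10 without cKO 2 and 25 without control 1, while the calls over all tested genes went from 514 to 42, 179, 178, 285, 332 and 1000 in the same order. Nucleolar proteins had 6 of 13 called higher. Ncl (nucleolin) stood at 478, 454 and 485 CPM in the controls and at 733, 672 and 736 CPM in the libraries labelled cKO (log2 fold change 0.60, SE 0.10, adjusted p = 0.00880). Npm1 (nucleophosmin), a histone chaperone and the main protein of the granular nucleolus, stood at 257, 262 and 293 CPM against 484, 386 and 446 CPM (log2 fold change 0.70, SE 0.12, adjusted p = 0.00915). Nolc1, a chaperone of snoRNPs, had a log2 fold change of 0.72 (SE 0.12, adjusted p = 0.00825), the helicase Ddx21 0.75 (SE 0.15, adjusted p = 0.0141), Gnl1 0.71 (SE 0.17, adjusted p = 0.0274) and Rrp12 0.87 (SE 0.21, adjusted p = 0.0307). Ncl, Npm1 and Nolc1 lost their calls only without cKO 3 (adjusted p = 0.0617, 0.0591 and 0.0523). Nop53, a nucleolar protein of the large subunit, was called lower, at 251, 227 and 257 CPM against 157, 173 and 174 CPM (log2 fold change -0.54, SE 0.11, adjusted p = 0.0157), and lost its call without cKO 1, cKO 3 or control 3 (0.0531 to 0.0732).

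Of 40 early large subunit factors, 8 were called higher and 1 lower. Nol9, the kinase that acts on the spacer between the large subunit rRNAs, had a log2 fold change of 0.90 (SE 0.15, adjusted p = 0.00880), Rrp15 0.77 (SE 0.16, adjusted p = 0.0172) and the rRNA methyltransferase Nop2 0.69 (SE 0.13, adjusted p = 0.0113). The other 5 called higher, Ftsj3, Mrto4, Rsl1d1, Rrp1b and Rsl24d1, are outside the rule for named genes. Noc2l, also outside it, was called lower, at 25.7, 40.4 and 49.5 CPM against 24.7, 17.7 and 21.6 CPM (log2 fold change -0.86, SE 0.24, adjusted p = 0.0482). Of 13 RNA exosome genes, the nuclease Dis3 (log2 fold change 0.71, SE 0.12, adjusted p = 0.00825) and the subunit Exosc9 (0.54, SE 0.13, adjusted p = 0.0321) were called higher (15.4%, beside 4.47%). Of 16 genes of RNA polymerase I and its factors, 3 were called higher (18.75%, beside 4.47%). These were the initiation factor Rrn3 (0.52, SE 0.12, adjusted p = 0.0275), Taf1a (0.69, SE 0.17, adjusted p = 0.0293) and the subunit Polr1c (0.70, SE 0.17, adjusted p = 0.0333). The catalytic subunit Polr1a (0.29, SE 0.17, adjusted p = 0.296), its partner Polr1b (0.79, SE 0.23, adjusted p = 0.0531) and the upstream binding factor Ubtf (-0.11, SE 0.12, adjusted p = 0.590) were not called. Polr1b was called under 5 of 13 alternatives, namely DESeq2 (adjusted p = 0.0124), the filter at a mean of 5 CPM (0.0415), no filter (0.0392), limma-voom (0.0424) and total counts (0.0455). Dis3 and Nol9 lost their calls only without cKO 3 (adjusted p = 0.0523 for both), and Nop2 and Ddx21 without cKO 1, cKO 3 or control 2 (up to 0.0680 and 0.0834). Rrp15 and Gnl1 lost theirs without cKO 1, cKO 3, control 2 or control 3 (up to 0.0939 and 0.112), and Rrp12 without control 2 or any library labelled cKO (up to 0.128). Rrn3, Taf1a, Exosc9 and Polr1c were called only with all libraries or without control 1 (adjusted p up to 0.0975, 0.0895, 0.140 and 0.142 otherwise).

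**Figure D5:**
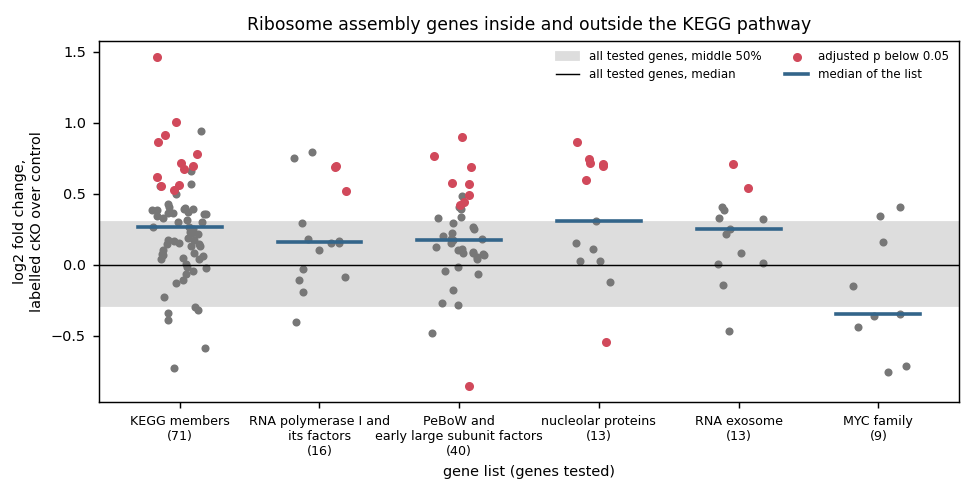
Log2 fold change, libraries labelled cKO over control, of each tested gene in the KEGG pathway and in 5 groups of other ribosome assembly and MYC family genes (red, adjusted p below 0.05, blue line, median of the group). The medians are 0.26 for the pathway members and 0.16 to 0.31 for the 4 assembly groups, and -0.35 for the MYC family, beside the middle 50% of all tested genes in grey.

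MYC, a transcription factor that binds E-boxes (CACGTG), is known to raise the transcription of many ribosome biogenesis genes in growing cells. Of 9 tested genes of the MYC family, none was called in either direction (0 of 9), and their median log2 fold change was -0.35. Besides Myc and Mycn, the 9 include Max, Mlx, Mnt, Mxi1, Mxd1, Mxd3 and Mxd4. This median therefore does not measure the activity of MYC, which was not tested. At an unadjusted p below 0.05, 0 were higher (beside 13.3% of all tested genes) and 2 lower (beside 14.6%), Mycn (log2 fold change -0.76) and Mxi1 (-0.36). All libraries labelled cKO lay below all controls for 3 of the 9 (33.3%, beside 17.3% of all tested genes) and above them for 0 (beside 15.7%). Myc stood at 52.5, 55.6 and 72.1 CPM in the controls and at 78.4, 54.9 and 67.7 CPM in the libraries labelled cKO, with overlap (log2 fold change 0.16, SE 0.17, adjusted p = 0.606).

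Promoter windows from RefSeq on GRCm38.p6, from 250 bases before to 50 bases after the start site, were found for 60 of the 71 tested members (68 windows) and for all 12 called members. The letters CACGTG were present in 13 of the 68 member windows (19.1%), beside 10.1% of the windows of all tested genes and 7.15% of all windows. Among the 12 called members, 3 had them, Utp18, Utp4 and Wdr43. The letters CCGGAAG or their complement, the core that ETS factors bind, were present in 36.8% of member windows, beside 18.6% for all tested genes. Other motifs were GGGCGG, the GC box (64.7% beside 62.3%), CCAAT (38.2% beside 38.5%), TATAAA (2.94% beside 7.01%), the E2F forms TTTCCCGC (4.41% beside 2.06%) and TTTGGCGC (0% beside 0.953%), and the NRF1 motif (1.47% beside 2.197%), each searched on both strands. A match is a description of the sequence only. The 5 UtpA genes of the KEGG pathway all stood higher in every library labelled cKO than in any control, as did 15.7% of all tested genes. For 2 of those called, 100 bases before the start site are shown. Matches to the E-box, ETS, GC box and CCAAT letters are in capitals. The windows of Utp15 (0 matches) and Wdr43 (1 GC box) overlap transcribed sequence in GENCODE and are not shown. The window of Utp4 also reaches transcribed sequence in its last bases, since its GENCODE start is base 106893636. Wdr75 (chr1:45795066-45795165, plus strand) holds a GC box read on the other strand, and Utp4 (chr8:106893540-106893639, plus strand) holds the ETS letters at 2 places on the other strand.
Wdr75: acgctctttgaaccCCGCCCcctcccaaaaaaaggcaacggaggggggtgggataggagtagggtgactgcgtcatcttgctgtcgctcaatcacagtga
Utp4: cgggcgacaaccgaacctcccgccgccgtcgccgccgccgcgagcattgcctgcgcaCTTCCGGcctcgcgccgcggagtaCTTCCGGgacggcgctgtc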

How the data were processed

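RNA was extracted from sorted DP thymocytes, cDNA was pre-amplified, and 6 libraries were sequenced on an Illumina instrument. The labels and the paper's methods name different library kits. The submitters' processing notes list fastp 0.18.0, Bowtie2 2.2.8, HISAT2, StringTie and RSEM, and the genome build, the annotation and the use of strand in counting were not given in the sources used here. In 1 table, the authors deposited several kinds of value. Its count columns hold reads per gene and library without normalization, and its FPKM columns hold the authors' values per gene length and library size. Group means, log2 ratios, p-values and FDR of the authors' own comparison were not used, and 0 columns of values per sample were left out otherwise.

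The KEGG column of the table gave the members. Members and gene lists were chosen with earlier results of these data known. Counts were fitted in R 4.3.3 with edgeR 4.0.16 (TMM scaling, and filterByExpr at a count of 10 and a total of 15, which kept 11488 of 15349 genes with a count). The quasi-likelihood test had genotype as its term, and p-values were adjusted over all tested genes by Benjamini-Hochberg. SE is the absolute log2 fold change divided by the root of F. Relative levels used log2(CPM + 0.5). In each library, 1 count was worth 0.0388 to 0.0521 CPM. The scripts were tested on simulated counts. No libraries of a group were duplicates (chi-square per degree of freedom 19.7 to 68.0).

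Named genes were all members called, the next by p up to 20, the 5 with the highest FPKM, a fixed set by role, the called genes of the other list (at most 15) with Myc, Polr1a, Polr1b, Ubtf, Rrn3, Ncl and Npm1, and Paxbp1. Rmrp, also in the rule, was not analysed here. Genes named beyond this rule were picked with their values in view. Alternatives were DESeq2 1.42.0, limma-voom (limma 3.58.1), RLE factors, total counts, other filters, the replicate number as a block and leaving out each library. Positions are from GENCODE M21 on GRCm38, matched for 76 members.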

Additional observations from a re-analysis of the deposited data

How the results depend on the processing

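All 12 called members kept a fold change above 0 under all 13 alternatives, and 12 of 12 remained called with DESeq2, RLE factors, limma-voom, total counts, no filter and a filter at a mean of 5 CPM. Samples with the same replicate number did not deviate together (correlations of -0.03 to 0.0451), so no pairing by number was seen. With 3 libraries a group, a weak pairing could go unseen. With the replicate block, 11 members were called higher, without Utp18 (log2 fold change 0.52, adjusted p = 0.0593), and 1 of the other assembly genes was called lower, as with RLE factors (1). DESeq2 called 16 members higher (beside 8.3% of all tested genes) and 2 lower (beside 8.59%). Without a filter, 1 member passed the fold threshold as well, Gnl3. Leaving out 1 library gave 2 to 17 members called higher (beside 0.359% to 8.42% of all tested genes), 1 to 2 past the fold threshold, a median of 0.21 to 0.29, and 0 to 25 other assembly genes called higher and 0 to 4 lower. The sign of Emg1 turned with a filter at 5 CPM (log2 fold change 0.0014), with total counts (0.0060) and over the libraries left out (-0.083 to 0.039). Signs also turned over the libraries left out for Efl1 (-0.010 to 0.26), Utp14a (-0.11 to 0.12) and Utp14b (-0.20 to 0.34). The cause was not tested. With 3 libraries a group, the calls of 10 of the 12 members were lost without at least 1 library.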
